A study of Mus musculus with 9 samples.

Results

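The MHC class II genes described here are the 10 genes of peptide presentation to CD4+ T cells that were taken by symbol, with no threshold on a measured value, although earlier results of these data were known: the chains H2-Aa, H2-Ab1 and H2-Eb1, the invariant chain gene Cd74, the peptide-loading genes H2-DMa, H2-DMb1, H2-DMb2, H2-Oa and H2-Ob, and the transcriptional regulator Ciita. All 10 were among the 18755 genes of the deposited count table, and all 10 were among the 13966 genes that passed the filter on low counts. RNA was measured in whole primary tumors grown from 4T1 cells, a mammary carcinoma line derived from BALB/c mice, in the mammary fat pad of female BALB/c mice that were 6 to 10 weeks old at injection. The comparison was between 3 tumors of mice given the vehicle (Natrosol 0.5%) and 6 tumors of mice given BI 853520, an inhibitor of focal adhesion kinase, at 50 mg/kg for 5 days from day 15 after injection. The host is immunocompetent and syngeneic, each library is one tumor, and tumors were kept for sequencing analysis on the quality of their RNA. Library totals ran from 16931607 to 33850245 counts. The carcinoma genes Krt8 and Krt18 were present in every tumor at 347.5 CPM or more, whereas Epcam did not exceed 10.3 CPM. CPM are counts scaled to a common library total, here after TMM, the edgeR scaling that corrects for composition.

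Class II molecules are heterodimers of an alpha and a beta chain. They are assembled with the invariant chain in the endoplasmic reticulum and carried to endosomes, where proteases degrade the invariant chain and leave a fragment, CLIP, in the groove. H2-DM then exchanges CLIP for peptide, and H2-DO, the product of H2-Oa and H2-Ob, modulates H2-DM. CIITA is the co-activator that sets class II transcription by binding to a complex on the X and Y boxes of the promoters, and it is made mainly in dendritic cells, B cells and activated macrophages.

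Because the promoters of these genes share these boxes, stretches with a match to one or both motifs searched are shown for 5 members. RefSeq windows from 250 bases before to 50 bases after the annotated start were found for 7 members (H2-Oa, H2-DMa, H2-DMb1, H2-DMb2, H2-Ob, H2-Aa and H2-Eb1), and H2-Ab1, Cd74 and Ciita were not matched. The letters TGATTGG, an inverted CCAAT sequence of the Y box, were searched on both strands, and so was GNAAC followed by TGATTGG with 15 to 40 bases between. The lines run 5′ to 3′ on the strand of the gene, with the motifs that were found in capitals. The coordinates are those of mm9 from an exact match of the RefSeq letters (windows from GRCm38.p6).
H2-Aa (chr17:34424806-34424861, minus strand): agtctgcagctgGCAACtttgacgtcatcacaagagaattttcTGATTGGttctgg
H2-Eb1 (chr17:34442709-34442763, plus strand): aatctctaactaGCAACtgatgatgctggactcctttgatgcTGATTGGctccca
H2-Ob (chr17:34375751-34375803, plus strand): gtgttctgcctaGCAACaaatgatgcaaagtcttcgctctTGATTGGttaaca
H2-Oa (chr17:34229236-34229291, plus strand): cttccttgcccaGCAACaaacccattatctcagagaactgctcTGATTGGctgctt
H2-DMb2 (chr17:34282054-34282114, plus strand): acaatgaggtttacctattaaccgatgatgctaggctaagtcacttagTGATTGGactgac
TGATTGG was found in the windows of 6 members and in 7.82% of all 32851 RefSeq windows. The ordered pair was found in 5 members, with 26 bases between in H2-Aa, H2-Oa and H2-DMb1, 25 in H2-Eb1 and 23 in H2-Ob, and in 0.715% of all windows. H2-DMb2 held TGATTGG without GNAAC in that range, and neither motif search matched in H2-DMa. The starts are those of RefSeq, and the GENCODE annotation of mm9 differs for 3 members. There, 7 bases of the H2-Oa stretch lie in an exon of the gene. The H2-DMb2 stretch lies inside the gene but outside its exons. All 56 bases of the matching H2-DMb1 stretch, not printed here, lie in an exon of the gene. A match describes letters only.

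**Figure D1:**
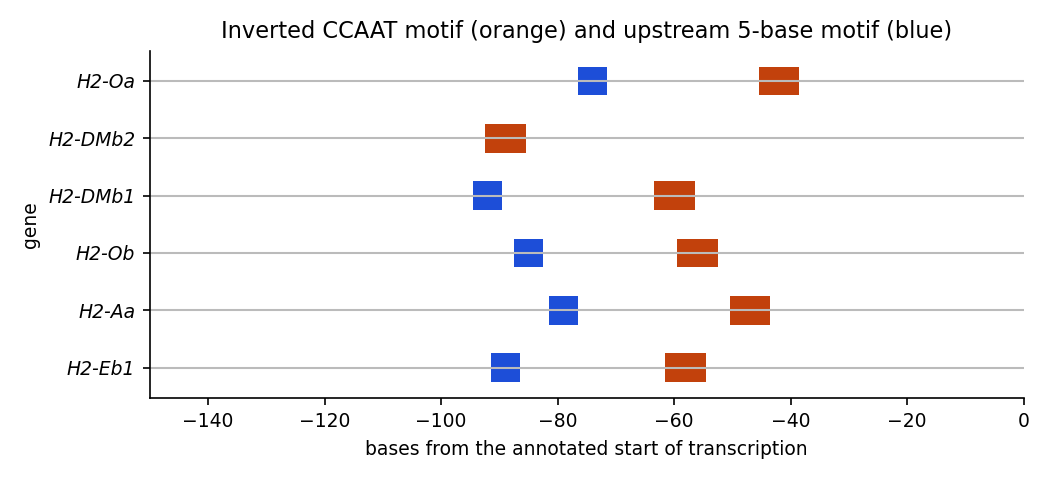
Position of the 2 motifs relative to the start of transcription annotated by RefSeq, in bases, for the 6 members with the inverted CCAAT motif (orange). The upstream 5-base motif is blue. In H2-Oa, H2-DMb1, H2-Ob, H2-Aa and H2-Eb1 the blue motif lies 23 to 26 bases upstream of the orange motif, and H2-DMb2 has the orange motif alone.

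Class II genes were higher after BI 853520 at nearly every step of the pathway, from chains to regulator. In edgeR's quasi-likelihood test (p adjusted by Benjamini-Hochberg over all genes tested, threshold 0.05), 9 of 10 members rose and none, 0 of 10, fell, against 14.6% of all genes tested that rose and 14.1% that fell. The same 9 members rose at an unadjusted p of at most 0.05 and a 1.5-fold change, against 9.59% of all genes tested. For 9 of 10 members the lowest BI-treated tumor exceeded the highest vehicle-treated one, against 14.1% of all genes tested. The median log2 fold change of the members was 1.04, or 2.05-fold, against -0.0037 over all genes tested. Together the members took 0.167% to 0.226% of all counts in vehicle-treated tumors and 0.326% to 0.570% in BI-treated tumors. In whole tumors, more cells of a type and more RNA per cell cannot be told apart.

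**Figure D2:**
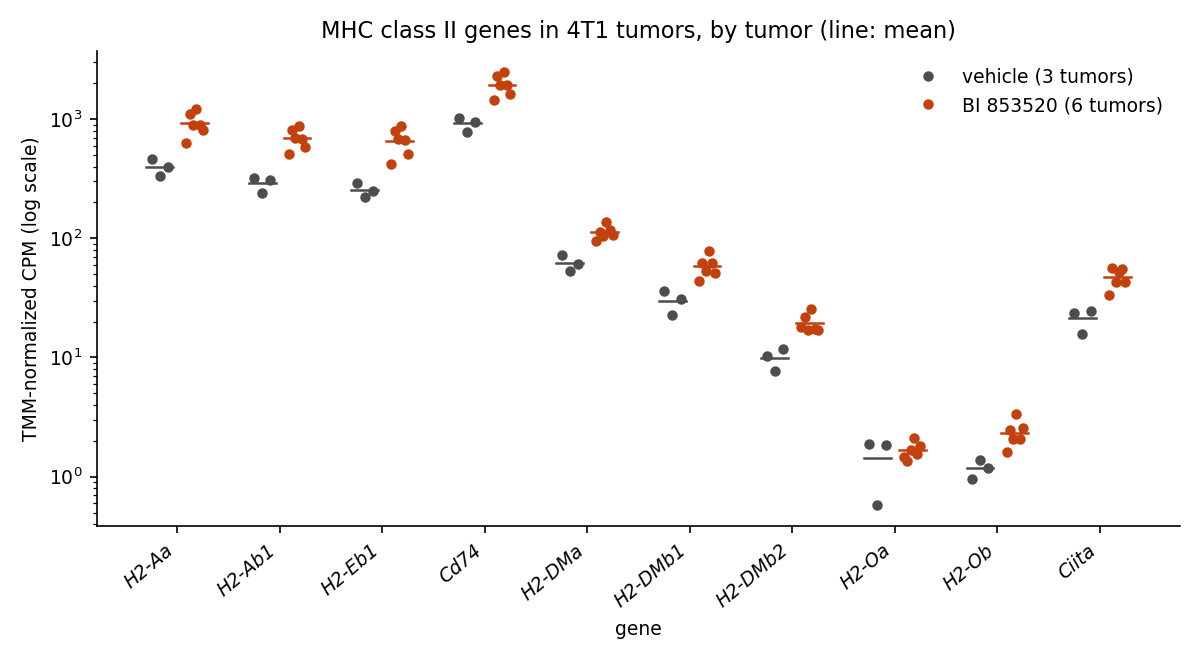
Level of each member in every tumor, as TMM-normalized CPM on a log axis, with vehicle-treated tumors (n = 3) in gray, BI-treated tumors (n = 6) in orange and lines at the group means. For 9 genes the orange points lie above all gray points of the same gene, and those of H2-Oa overlap.

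The classical chains form the molecules displayed at the cell surface. H2-Aa, the alpha chain of I-A, was at 465.5, 334.6 and 395.2 CPM in the 3 vehicle-treated tumors and at 636.6 to 1213 CPM, with a median of 898.2, in the 6 BI-treated tumors. The groups did not overlap, and its log2 fold change was 1.22 ± 0.18 (SE, adjusted p = 0.00058). H2-Ab1, the beta chain of I-A, was at 318.0, 240.8 and 307.9 CPM in vehicle-treated and at 514.2 to 873.0 CPM (median 686.6) in BI-treated tumors. The groups did not overlap here either, at a log2 fold change of 1.26 ± 0.16 (adjusted p = 0.00022). H2-Eb1, the beta chain of I-E, was at 291.1, 224.2 and 248.5 CPM against 420.9 to 871.0 CPM (median 673.0). Its log2 fold change of 1.37 ± 0.21 was the highest of the 10 members (adjusted p = 0.000592). H2-Aa and H2-Ab1 lie tail to tail on opposite strands and share 17 exon bases, and whether reads there were assigned by strand is not given in the sources used here.

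The invariant chain is needed for class II assembly and also serves as a receptor for the cytokine MIF. Cd74 was at 1030, 787.3 and 943.4 CPM in vehicle-treated tumors and at 1447 to 2469 CPM (median 1932) in BI-treated tumors. It had the highest level per length of the members in both groups, with 650.4 ± 86.9 RPKM (SD, n = 3) rising to 1379 ± 273.1 RPKM (SD, n = 6), where RPKM is CPM divided by the gene length in kilobases. The groups did not overlap, and its log2 fold change was 1.08 ± 0.16 (adjusted p = 0.000592).

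H2-DM is the exchange factor that loads peptide. H2-DMa, its alpha chain, was at 72.1, 53.3 and 60.8 CPM in vehicle-treated tumors and at 95 to 138.2 CPM (median 109.9) in BI-treated tumors. Its log2 fold change, 0.86 ± 0.12 (adjusted p = 0.000357), was the lowest of the 9 members that rose. H2-DMb1, a beta chain, was at 36.4, 22.6 and 30.8 CPM against 43.6 to 79.0 CPM (median 57.7). The log2 fold change was 0.97 ± 0.18 (adjusted p = 0.00235). H2-DMb2, the second beta chain, was at 10.3, 7.65 and 11.8 CPM against 17.1 to 25.5 CPM (median 17.7), with a log2 fold change of 0.97 ± 0.17 (adjusted p = 0.00129). The beta chain genes are close copies: 27.1% of the 50-base windows of H2-DMb1 occurred in H2-DMb2, and 24.6% of those of H2-DMb2 occurred in H2-DMb1. Only uniquely aligned reads were counted, so reads from shared stretches can be missing from both genes, and their relative levels are uncertain. With the counts of both genes summed, the log2 fold change was 0.97 (adjusted p = 0.00148).

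H2-DO gave the low end of the range. H2-Ob, its beta chain, was at 0.963, 1.39 and 1.18 CPM in vehicle-treated tumors and at 1.61 to 3.33 CPM (median 2.26) in BI-treated tumors. Its log2 fold change was 0.99 ± 0.26 (adjusted p = 0.0137), and without vehicle-treated tumor 1 or 3 its adjusted p was 0.0636 or 0.0553. H2-Oa, its alpha chain, was at 1.88, 0.582 and 1.83 CPM against 1.36 to 2.11 CPM (median 1.62). The groups overlapped, with 1 of 6 BI-treated tumors above every vehicle-treated tumor. The log2 fold change was 0.20, with a 95% interval from -0.49 to 0.90 (adjusted p = 0.671). Only 13 to 62 counts per library lay behind H2-Oa, and without vehicle-treated tumor 2 its log2 fold change was -0.16. Both H2-DO promoters hold the ordered motif pair printed above.

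Ciita encodes the co-activator of class II genes. It was at 23.8, 15.7 and 24.4 CPM in vehicle-treated tumors and at 33.7 to 56.1 CPM (median 47.7) in BI-treated tumors, which did not overlap. Its log2 fold change was 1.14 ± 0.18 (adjusted p = 0.000749).

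**Figure D3:**
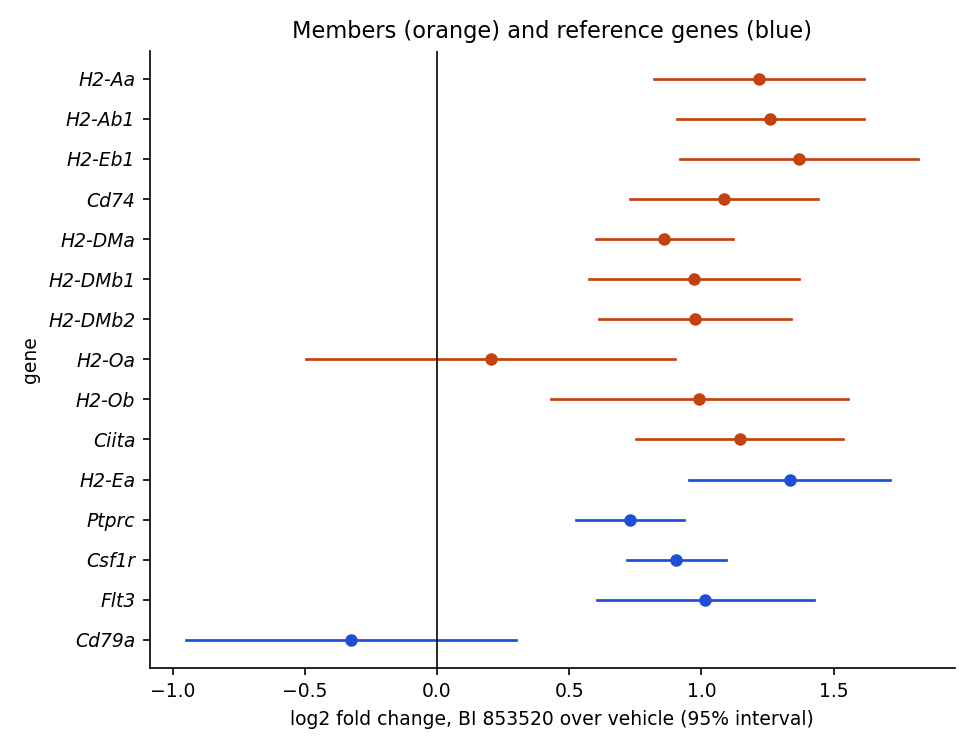
Log2 fold change of BI-treated over vehicle-treated tumors with 95% intervals for the 10 members (orange) and for H2-Ea, Ptprc, Csf1r, Flt3 and Cd79a (blue). The intervals of H2-Oa and Cd79a include 0, and the other intervals lie above 0.

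The highest and lowest tumors were often the same from member to member. Among BI-treated tumors, tumor 4 was highest for 9 members and tumor 1 was lowest for 8. Among vehicle-treated tumors, tumor 2 was lowest for 9 members. Over the 6 BI-treated tumors, the log2 level of each member was compared with the mean of the standardized levels of H2-Aa, H2-Ab1 and H2-Eb1. Pearson's r was 0.997 for Cd74, 0.937 for H2-DMb1, 0.860 for Ciita, 0.846 for H2-DMa, 0.781 for H2-Ob, 0.736 for H2-DMb2 and 0.325 for H2-Oa. Spearman's rho was 0.943 for Cd74 and H2-DMb1, 0.714 for H2-DMa, 0.657 for H2-Ob, 0.6 for Ciita and H2-DMb2 and 0.257 for H2-Oa. These values share libraries and their depth and are descriptions. Outside the members, the genes most like the chains over these 6 tumors were Itm2c (r = 0.998), Zfp316 (0.987), Scarf1 (0.984), Os9 (0.982) and Grn (0.979). They were among 12178 genes compared, of which 0.879% had an r of at least 0.9. Between the groups, Scarf1 and Grn rose (log2 fold changes 1.02 and 0.55, adjusted p = 0.000672 and 0.000159), and Zfp316 fell (-0.29, adjusted p = 0.0213). Itm2c and Os9 were not called (0.13 and 0.11, adjusted p = 0.353 and 0.218). Of the cell markers, Xcr1 had an r of 0.744, Cd79a 0.730, Csf1r 0.607, Ptprc 0.137 and Flt3 0.078. Spearman's rho ordered them otherwise, with 0.886 for Xcr1, 0.771 for Csf1r, 0.486 for Cd79a, 0.2 for Flt3 and 0.143 for Ptprc.

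Ratios of levels per length within each tumor asked whether chains, loading genes and regulator moved in proportion. Of 10 ratios, none passed an adjusted p of 0.05 in an exact two-sided permutation test over the 84 divisions of 9 tumors, where the smallest p possible is 0.0238 and the lowest adjusted p was 0.119. With 10 ratios, at least 5 at that smallest p would be needed for any to pass, so a miss does not show that a ratio stayed the same. H2-DMa over H2-Aa differed by -0.34 on the log2 scale, and its value in 6 of 6 BI-treated tumors was under the lowest vehicle value (exact p = 0.0238, adjusted p = 0.119). Cd74 over H2-Aa differed by -0.13, with 5 of 6 BI-treated tumors under the lowest vehicle value (exact p = 0.0476, adjusted p = 0.159). The differences for H2-Ab1, H2-Eb1 and Ciita over H2-Aa were 0.05, 0.14 and -0.05, with exact p of 0.452, 0.143 and 0.786. H2-Oa over H2-DMa differed by -0.51 (exact p = 0.167), and by -0.92 without vehicle-treated tumor 2 and -0.26 without vehicle-treated tumor 3. 

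The same test set H2-Aa against markers of cells that hold class II. H2-Aa over Cd79a, a B cell receptor subunit, was higher in 6 of 6 BI-treated tumors by 1.53 on the log2 scale (exact p = 0.0238, adjusted p = 0.119). H2-Aa over the pan-leukocyte gene Ptprc differed by 0.48 (exact p = 0.119), over the macrophage receptor Csf1r by 0.30 (exact p = 0.119) and over the dendritic cell receptor Flt3 by 0.23 (exact p = 0.333). The number of BI-treated tumors above every vehicle-treated tumor was 4 of 6 for Ptprc, 5 of 6 for Csf1r and 3 of 6 for Flt3. Without vehicle-treated tumor 2 the differences over Csf1r and Flt3 were 0.19 and 0.09, and without BI-treated tumor 4 the difference over Flt3 was 0.14.

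**Figure D4:**
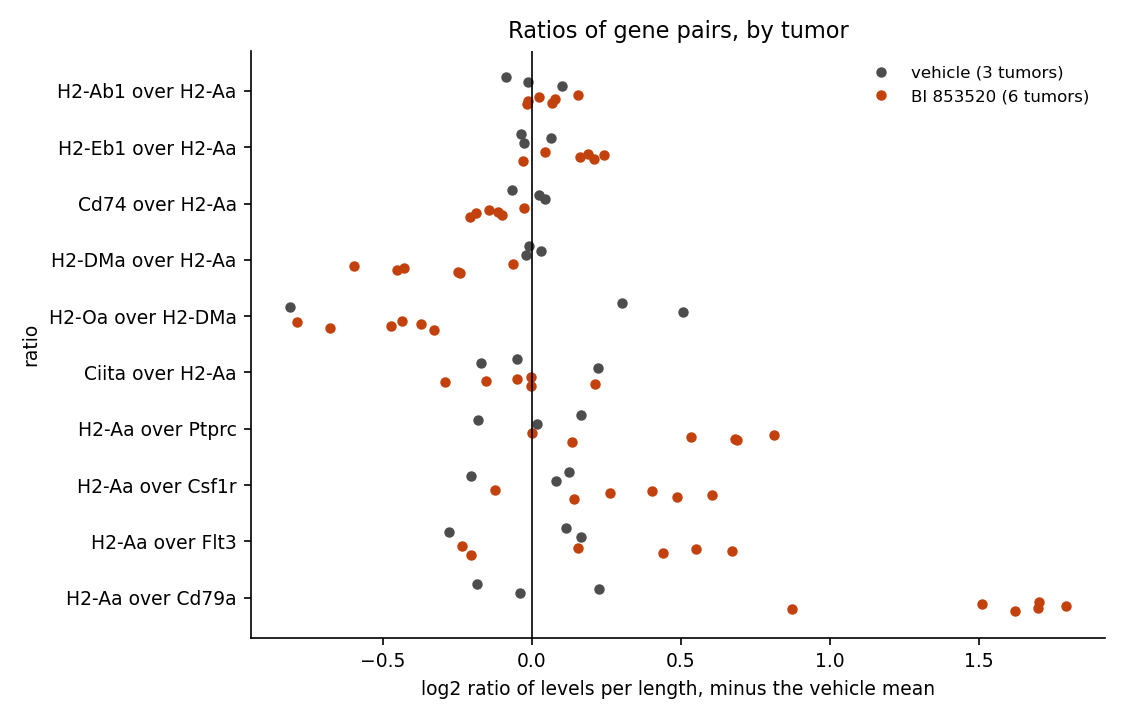
Log2 ratio of levels per length for 10 gene pairs in every tumor, each set to a vehicle mean of 0 (gray, 3 vehicle-treated tumors; orange, 6 BI-treated tumors). All orange points lie below the gray points for H2-DMa over H2-Aa and above them for H2-Aa over Cd79a.

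Of the members, 8 lie in the class II region of chromosome 17 (mm9), from H2-Oa at 34229285-34232179 to H2-Eb1 at 34442828-34453144, and Ciita lies on chromosome 16 at 10480237-10527657. Of the genes between them, Psmb9, Psmb8, Tap1 and Tap2, which serve class I presentation, and Brd2, a chromatin reader, did not pass the test. Their log2 fold changes were 0.21, 0.16, 0.21, 0.05 and 0.00, whereas those of the 7 neighboring members that rose ran from 0.86 to 1.37. Cd74 lies outside the region.

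**Figure D5:**
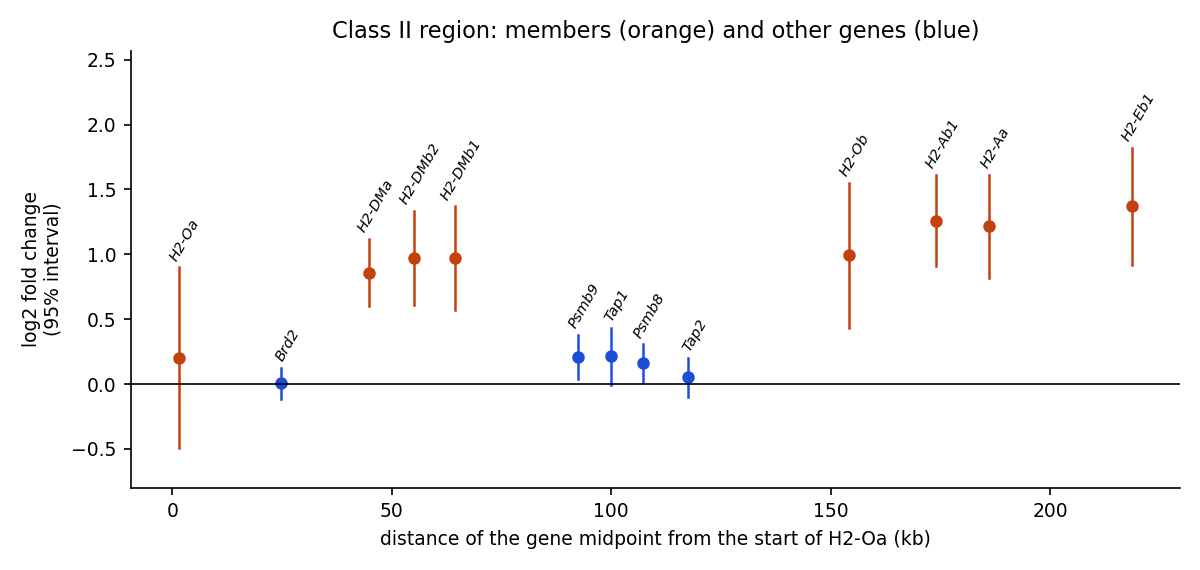
Log2 fold change with 95% interval against the distance of the gene midpoint from the start of H2-Oa, in kb, for members (orange) and the other genes tested between them (blue). The blue points lie between 0.00 and 0.21, below the orange points other than H2-Oa.

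H2-Ea, the alpha chain that pairs with H2-Eb1, rose from 127.3 to 173.1 CPM in vehicle-treated tumors to 301.0 to 513.2 CPM in BI-treated tumors (log2 fold change 1.33 ± 0.17, adjusted p = 0.000248). The mm9 annotation lists H2-Ea as a pseudogene. Differences between the mm9 and BALB/c sequences of the class II genes were not examined. H2-Eb2, another beta chain gene, was below the filter. Of 22 regulators of Ciita and of class II promoters, 8 rose and 2 fell. Spi1 and Irf4, factors of myeloid and lymphoid cells, rose (log2 fold changes 0.73 and 0.88), and Jak2 and Nfyb fell (-0.41 and -0.29). Rfx5, Rfxap and Rfxank, which bind the X box, gave log2 fold changes between -0.06 and -0.01 with adjusted p of 0.648 or more.

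Of 10 endosomal processing genes, 8 rose and 0 fell. Ctss, the protease that trims the invariant chain, rose from 543.5 to 699.3 CPM to 1029 to 1280 CPM (log2 fold change 0.91 ± 0.09, adjusted p = 5.19e-05). Ctsh rose by a log2 fold change of 0.79 (adjusted p = 0.000112), and Ctsl, which had the highest level per length, by 0.49 (adjusted p = 0.0209). Of 9 genes of class II turnover and vesicle membranes, 4 rose and 1 fell. March1, a ubiquitin ligase that removes class II from the surface, rose by a log2 fold change of 1.05 (adjusted p = 1.86e-05), Lamp1 by 0.33 (adjusted p = 0.00666), and Cd63 fell by 0.25 (adjusted p = 0.0115). Of 5 ligands and co-receptors of CD74, 0 rose and 2 fell: Mif, its ligand, by 0.46 (adjusted p = 0.0017), and Cxcr2 by 0.91 (adjusted p = 0.000354). Of 10 tested class II receptors and costimulatory genes, 6 rose and 0 fell. Those that rose included Lck (0.98, adjusted p = 0.00101) and Lag3, a receptor of class II (0.94, adjusted p = 0.00127). Cd4 was not called (0.39, adjusted p = 0.192), and neither were Ctla4, Cd80 and Cd86. 

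Some markers of the cells that hold class II also rose, and their part in the result was not tested. Ptprc rose by a log2 fold change of 0.73 (adjusted p = 0.000225). Of 12 macrophage and monocyte genes, 10 rose and 0 fell, and their summed level ran from 1922 to 2466 CPM in vehicle-treated and from 3627 to 4473 CPM in BI-treated tumors. C1qb rose by 1.11 and Csf1r by 0.91. Of 10 conventional dendritic cell genes, 7 rose and 1 fell, and the summed level ran from 498.5 to 553.9 CPM in vehicle-treated and from 428.5 to 505.2 CPM in BI-treated tumors. Most of that sum was Fscn1, and the other 9 genes summed to 82.6 to 101.0 CPM and 138.5 to 209.2 CPM, a sum chosen after seeing the data. In that list Flt3 rose by 1.01 and Ccr7 by 1.08, while Fscn1 fell by 0.48. Itgax and Zbtb46 gave log2 fold changes of 0.01 (adjusted p = 0.985) and -0.07 (adjusted p = 0.734). Of 6 plasmacytoid dendritic cell genes, Ccr9 and Pacsin1 rose, and the summed level ran from 485.2 to 505.6 CPM and from 423.5 to 554.8 CPM. Without Tcf4 and Bst2, a choice also made after seeing the data, the other 4 genes summed to 3.09 to 5.23 CPM and 4.93 to 13.2 CPM. Of 10 B cell genes, 7 were tested, 4 rose and 0 fell, and the summed level ran from 26.8 to 35.0 CPM and from 36.6 to 47.3 CPM. Cd22 rose by 1.49 and Cd37 by 0.37, whereas Cd79a had a log2 fold change of -0.33 (adjusted p = 0.421). Ms4a1 did not exceed 0.675 CPM in any tumor, and Pax5, Blk and Cr2 were below the filter.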

How the data were processed

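RNA of 9 tumors was sequenced by the authors as paired-end stranded mRNA libraries of 50 cycles, aligned to mm9 with STAR keeping unique hits, and counted per RefSeq gene with QuasR. The deposited values are raw counts per gene, and whether counting used strand is not given in the sources used here. Groups came from the agent named in the labels, and replicate numbers only name tumors. Genes were filtered with filterByExpr (minimum count 10, minimum total 15) and tested with the quasi-likelihood F test of edgeR 4.0.16 in R 4.3.3, with TMM factors (0.984 to 1.02), no covariates and Benjamini-Hochberg adjustment over 13966 genes. The call threshold was an adjusted p of 0.05. Log2 CPM used a prior count of 2. The scripts were tested on simulated data. DESeq2 1.42.0 and limma 3.58.1 were alternatives, with other normalizations, filters and left-out tumors. Ratios used exact permutation tests. P-values set the difference between groups against the spread between these tumors. A count of 3 corresponded to 0.0886 to 0.177 CPM, for counting error only. Within groups, tumors differed beyond counting error (mean chi-square per gene 8.83 to 30.0).

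Named were all members, the ratio genes, in every list the 2 genes with the smallest p per direction and the gene with the highest level per length, and the 5 genes most like the chains; other genes were chosen after their values were seen. Some genes of these lists are not reported here. Members and lists were chosen with earlier results of these data known.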

Additional observations from a re-analysis of the deposited data

Results flagged for a closer look

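Of 59 results examined, 4 had a BI-treated tumor that stood far from the other 5, and chance gives about 1 in 20. Irf4 was at 7.87 CPM in BI-treated tumor 2, Pacsin1 at 1.37 CPM in BI-treated tumor 1, and Cxcl13 at 109.2 CPM in BI-treated tumor 6. The log2 ratio of H2-Aa over Cd79a was 7.99 in BI-treated tumor 5, the lowest of the BI-treated tumors.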

How the results depend on the processing

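Of 161 member fold changes under the alternatives, 158 kept direction and side of the threshold. H2-Ob was no longer called without vehicle-treated tumor 1 (0.88, adjusted p = 0.0636) or 3 (0.99, adjusted p = 0.0553), and H2-Oa turned to -0.16 without vehicle-treated tumor 2; leave-one-out ranges were 0.86 to 1.12 and -0.16 to 0.43. Leaving out each tumor, 8 to 9 members rose. Of all genes, 1332 to 2026 rose and 1172 to 1980 fell when each tumor was left out, the lowest without vehicle-treated tumor 3; 1289 fell without vehicle-treated tumor 1. At an unadjusted p of at most 0.05 and 1.5-fold, 1339 rose and 499 fell. The log2 ratio of Ciita over H2-Aa, -0.05, turned to 0.062 without vehicle-treated tumor 3 and to 0.0004 without BI-treated tumor 4 (range -0.13 to 0.062). The cause was not tested. H2-Oa rested on 13 to 62 counts per library and H2-Ob on 21 to 74.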

Other observations

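Other cell markers were also counted. Of 10 T cell genes, 9 rose and 0 fell, with Cd3e at a log2 fold change of 1.14, Cd2 at 1.16 and Cd3g, the highest in level per length, at 1.08. Of 7 tested neutrophil genes, 0 rose and 3 fell, with S100a9 at -1.30 and Retnlg at -1.43. Of 8 endothelial genes, 3 rose and 0 fell, with Cdh5 at 0.41 and Kdr at 0.38, and Pecam1 gave 0.34 (adjusted p = 0.0532). Of 8 carcinoma epithelium genes, 0 rose and 2 fell, Krt8 at -0.28 and Krt18 at -0.50. Cxcl13, a lymphoid chemokine, rose by a log2 fold change of 3.05 (adjusted p = 0.00877), with 3.04 to 8.71 CPM in vehicle-treated and 10.4 to 109.2 CPM in BI-treated tumors.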
